A study of Mus musculus with 6 samples.

Results

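A set of 9 genes was followed in cultured Schwann cells (SCs): *Ngfr*, which encodes the neurotrophin receptor p75, the secreted factors *Bdnf*, *Gdnf*, *Artn*, *Cntf*, *Lif*, *Clcf1* and *Shh*, and *Olig1*, which encodes a transcription factor. Most of these genes are known to be turned on, or turned up, when SCs of an injured nerve become repair cells. They were picked by name, and each was found by its Ensembl identifier among the 55401 genes of the exonic count table. Of the 9 genes, 8 had enough reads to be tested, and *Olig1* did not. RNA was sequenced in bulk from 6 preparations of primary SCs, grown from dorsal root ganglia (DRGs) of adult mice, with 3 labelled wild type (WT) and 3 labelled PB1 -/-, written here as *Plxnb1*-/- SCs. The mutant allele is a constitutive gene trap in *Plxnb1* that carries a lacZ-neo cassette, kept on a C57BL/6 background. It is not limited to SCs, so every cell type of the animals, and not only their glia, carried it. The study's methods allow littermates with a normal or a heterozygous genotype as controls, whereas the labels of these libraries say WT. All 6 libraries came from cells grown in serum with forskolin and neuregulin, both of which act on the state of SCs. Fibroblasts were depleted with an antibody against Thy1, and the study's methods give only a minimum purity for such cultures. Fibroblast markers were still found in all 6 libraries, as described below. The labels name no nerve injury before the cells were taken. The sources used here do not say whether the 3 replicates of a genotype were separate cultures or animals, nor their sex, so the p-values measure only the spread between these libraries.

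After a peripheral nerve is cut, SCs beyond the injury give up myelination and take on a repair state that depends on the transcription factor c-Jun. Repair SCs secrete factors that keep neurons alive and draw axons forward, and carry p75 on their surface. The factors belong to 4 signaling families. Neurotrophins such as BDNF bind p75 and Trk receptors. GDNF and artemin bind GFRα co-receptors that recruit the kinase RET. CNTF, LIF and the CNTF-like cytokine encoded by *Clcf1* signal through gp130. Sonic hedgehog binds Patched and releases Smoothened. *Shh* and *Olig1* are absent from most SCs of intact nerve and are widely used as signs of the repair state. The comparison of the genotypes asks whether SCs without Plexin-B1 held different amounts of these messages.

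The 9 genes lie on 7 chromosomes of GRCm38. *Ngfr* is at chr11:95568818-95587735 on the minus strand and *Lif* is at chr11:4257557-4272514 on the plus strand. *Clcf1* is at chr19:4214238-4223490 on the plus strand and *Cntf* is at chr19:12763660-12765632 on the minus strand. *Bdnf* is at chr2:109674700-109727007 (plus), *Artn* at chr4:117926162-117929763 (minus) and *Shh* at chr5:28456815-28467256 (minus). *Gdnf* is at chr15:7810846-7837575 (plus) and *Olig1* at chr16:91269772-91271933 (plus). RefSeq promoter windows of GRCm38.p6 were available here for 6 of the 9 genes, in 13 windows because *Bdnf* and *Gdnf* have several start sites. *Clcf1*, *Shh* and *Olig1* had none in that table. The windows were searched over the 250 bases before each start for TGAGTCA or its other strand TGACTCA, the site of the AP-1 complex to which c-Jun belongs. The site was found in 2 of the 13 windows, those of *Lif*, 228 bases before the start, and *Cntf*, 245 bases before it, and in 4.46% of 32851 windows of all genes. A match of letters is a description and does not show that a factor binds there. The windows with the site are shown, with the site in capitals, beside those of *Ngfr* and *Artn*, whose levels did not overlap between the genotypes and which do not hold these letters. The windows of *Lif* and *Ngfr* were cut to the bases outside annotated exons.
Lif promoter, chr11:4257318-4257556, plus strand: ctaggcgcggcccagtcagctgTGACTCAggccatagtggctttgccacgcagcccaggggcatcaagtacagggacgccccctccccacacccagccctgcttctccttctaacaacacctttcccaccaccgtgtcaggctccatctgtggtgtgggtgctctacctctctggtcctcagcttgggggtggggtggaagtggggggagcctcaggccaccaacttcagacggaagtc
Cntf promoter, chr19:12765633-12765882, minus strand: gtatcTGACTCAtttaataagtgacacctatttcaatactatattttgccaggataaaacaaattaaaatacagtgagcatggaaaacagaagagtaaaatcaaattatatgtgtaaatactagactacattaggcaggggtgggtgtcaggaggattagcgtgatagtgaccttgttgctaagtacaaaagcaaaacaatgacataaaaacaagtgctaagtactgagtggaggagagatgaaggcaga
Ngfr promoter, chr11:95587736-95587948, minus strand: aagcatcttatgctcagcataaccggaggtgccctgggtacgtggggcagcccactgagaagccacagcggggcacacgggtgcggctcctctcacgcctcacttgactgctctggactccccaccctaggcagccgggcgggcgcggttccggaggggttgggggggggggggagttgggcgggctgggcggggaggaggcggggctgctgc
Artn promoter, chr4:117929764-117930013, minus strand: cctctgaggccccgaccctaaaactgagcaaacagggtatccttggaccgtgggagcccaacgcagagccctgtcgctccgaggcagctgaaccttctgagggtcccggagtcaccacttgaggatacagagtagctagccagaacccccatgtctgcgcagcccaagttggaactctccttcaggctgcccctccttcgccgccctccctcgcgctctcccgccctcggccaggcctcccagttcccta
The window of *Ngfr* was rich in G and C, at 70.4% over its full 250 bases, against 63.6% for *Lif* and *Artn* and 35.6% for *Cntf*.

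The libraries held 59252048 to 77280964 counts each, and levels are given as CPM, counts scaled to library size by the TMM method. At this depth, 3 counts, taken as the smallest number that shows a gene, correspond to between 0.0383 and 0.0513 CPM, which covers counting error only. The targeted gene *Plxnb1* stood at 61.8, 45.4 and 96.4 CPM in WT libraries 1 to 3 and at 13.1, 16.6 and 18.6 CPM in *Plxnb1*-/- libraries 1 to 3, the order in which values are listed throughout, for a log2 fold change (positive where *Plxnb1*-/- SCs were higher) of -2.08 with a standard error (SE) of 0.25 (adjusted p = 0.0449, edgeR's quasi-likelihood test). Its adjusted p was between 0.0812 and 0.254 without WT replicate 1 or any of the mutant libraries. The study's read tracks show exons downstream of the inserted cassette losing expression in the mutant. The counts used here cover all exons of the gene, and the source of the remaining counts was not tested. All 12 SC markers examined were expressed, *Sox10*, *S100b* and *Erbb3* among them, which fits the label of the cells. WT replicate 2 stood apart from the rest on the first principal component (-47.4, against -7.52 and -3.58 for the other WT libraries). At the other end lay *Plxnb1*-/- replicate 3 (34.0, against 10.3 and 14.1 for the other mutant libraries). Genes at an unadjusted p below 0.05 by edgeR fell from 3063 to 1628 without *Plxnb1*-/- replicate 3, and to 2048 without WT replicate 2. WT replicate 2 had the lowest level of 10 of the 12 SC markers and the highest level of 7 of 11 fibroblast and mural cell markers among the 6 libraries. It also had the lowest level among the WT libraries for 7 of the 8 tested trophic genes, and their fold changes are therefore given without it too. In bulk RNA, fewer cells of a type and less RNA per cell cannot be told apart.

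A gene was called changed at an adjusted p below 0.05 (Benjamini-Hochberg over 22318 tested genes) with an absolute log2 fold change above 0.25. None of the 8 tested genes was called by edgeR's quasi-likelihood test, which called 0.0358% of all tested genes. At an unadjusted p below 0.05, 4 of the 8 were higher in *Plxnb1*-/- SCs (*Ngfr*, *Artn*, *Clcf1* and *Shh*) and 0 were lower, where 6.95% of all tested genes were higher and 6.78% lower. DESeq2, the tool named in the study's methods, called 1 of the 8, *Clcf1*, as higher, and called 1.5% of all tested genes, 0.69% as higher. The highest WT library lay below the lowest *Plxnb1*-/- library for 3 of the 8, *Ngfr*, *Artn* and *Clcf1*, where 9.3% of all tested genes had this order, and the opposite order was seen for 0 of the 8, against 10.4% of all tested genes. Leaving out WT replicate 2 left the same 3 genes, where 12.3% of all tested genes had this order. Without WT replicate 3 the number was 6, with *Cntf* and *Shh* added as higher and *Bdnf* as lower, where 30.8% of all tested genes did not overlap in either direction. The fold change was above 0 for 6 of the 8, as for 51.5% of all tested genes. The median log2 fold change of the 8 genes was 0.20, against 0.0050 over all tested genes.

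**Figure D1:**
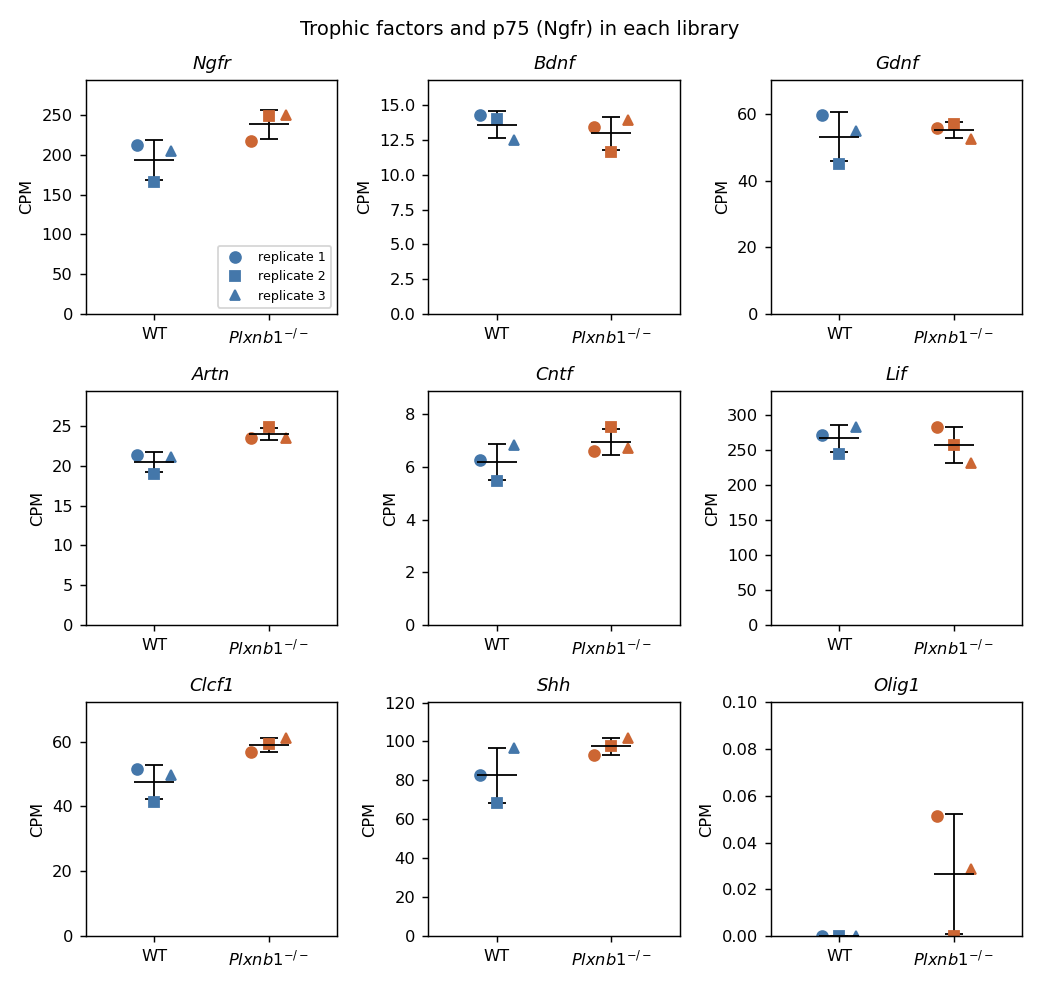
Level of each of the 9 genes in CPM (vertical axes, each from 0) in the 3 WT and 3 *Plxnb1*-/- libraries; points are libraries, the long dash is the mean and the bars are the SD over 3. The points of *Ngfr*, *Artn* and *Clcf1* do not overlap between the genotypes, those of *Gdnf*, *Bdnf*, *Cntf*, *Lif* and *Shh* do, and *Olig1* is at or near 0 counts in every library.

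p75, the product of *Ngfr*, binds every neurotrophin and marks SCs that are not making myelin. *Ngfr* stood at 212, 165 and 204 CPM in the WT libraries and at 217, 248 and 249 CPM in the *Plxnb1*-/- libraries. Each *Plxnb1*-/- library was above each WT library, but the step from the highest WT library to the lowest *Plxnb1*-/- library was small beside the range of the WT libraries. The log2 fold change was 0.30 (SE 0.09, adjusted p = 0.286 by edgeR and 0.0625 by DESeq2). It was 0.20 without WT replicate 2, and between 0.20 and 0.37 with each library left out in turn.

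BDNF, the ligand of TrkB and p75, supports sensory and motor neurons. *Bdnf* gave 14.3, 14.0 and 12.5 CPM in WT cells, against 13.4, 11.7 and 13.9 CPM in the mutant cells. The genotypes overlapped, with a log2 fold change of -0.06 (SE 0.09, adjusted p = 0.785 by edgeR), and of -0.04 without WT replicate 2. An antisense gene, Gm45346, covers 14.4% of its exonic bases, and because the strand setting of the counting is not given in the sources used here, its reads cannot be told apart from those of *Bdnf* over that stretch.

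Of the 17 genes of the neurotrophin list, 16 were tested, 0 were called by edgeR or DESeq2, and 4 were higher and 0 lower at an unadjusted p below 0.05. With *Ngfr* and *Bdnf* left out these numbers were 3 and 0 of 14, with a median log2 fold change of 0.01. Of all tested genes, 6.95% were higher and 6.78% lower at that level. *Ntf3*, which encodes neurotrophin-3, had 0 counts in all 6 libraries. The TrkB gene *Ntrk2* stood at 133, 109 and 129 CPM in the WT libraries and at 136, 148 and 146 CPM in the *Plxnb1*-/- libraries. Its genotypes did not overlap, and its log2 fold change of 0.21 (SE 0.07) had an adjusted p of 0.296 by edgeR and was 0.13 without WT replicate 2. *Sort1*, whose product sortilin partners p75, did not overlap either, with a log2 fold change of 0.21 (SE 0.10, adjusted p = 0.391 by edgeR) that was 0.09 without WT replicate 2. The TrkC gene *Ntrk3* had the largest positive log2 fold change of the list, 0.45 (SE 0.17, adjusted p = 0.314 by edgeR, and 0.27 without *Plxnb1*-/- replicate 3), at 6.01 to 8.78 CPM in WT and 8.86 to 12.8 CPM in *Plxnb1*-/- SCs. The largest negative one was that of *Sorcs3*, -0.56 (SE 0.65), which lay close to the 3-count level in every library.

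GDNF, made by denervated SCs, supports motor and sensory neurons through GFRα1. *Gdnf* gave 59.6, 45.1 and 55.0 CPM in WT cells, against 55.9, 57.2 and 52.5 CPM in the mutant cells. All *Plxnb1*-/- libraries lay inside the WT range, and the log2 fold change was 0.05 (SE 0.09, adjusted p = 0.843 by edgeR). Without WT replicate 2, the lowest library, it was -0.05.

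Artemin, the product of *Artn*, acts on sensory and sympathetic neurons through GFRα3. *Artn* was present at 21.3, 19.0 and 21.1 CPM in WT SCs and at 23.5, 24.9 and 23.5 CPM in *Plxnb1*-/- SCs. The libraries of each genotype lay close together, and the gap between the genotypes was about as wide as the WT range. The log2 fold change was 0.23 (SE 0.06, adjusted p = 0.273 by edgeR and 0.0782 by DESeq2), the smallest standard error of the 8 genes, and 0.18 without WT replicate 2.

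All 10 genes of the GDNF family list were tested, 0 were called by edgeR and 1 by DESeq2, and 4 were higher and 0 lower at an unadjusted p below 0.05. With *Gdnf* and *Artn* left out, 3 of 8 were higher and 0 lower, with a median log2 fold change of 0.20. Of all tested genes, 6.95% were higher and 6.78% lower at that level, and DESeq2 called 1.5%. The gene called by DESeq2 was *Gfra3*, which encodes the co-receptor of artemin. *Gfra3* stood at 2.72, 1.76 and 1.58 CPM in the WT libraries and at 2.85, 4.10 and 4.92 CPM in the *Plxnb1*-/- libraries. The highest WT and the lowest *Plxnb1*-/- library, both replicate 1, were nearly level, while the other libraries lay farther apart. The log2 fold change was 0.97 (SE 0.24, adjusted p = 0.273 by edgeR and 0.0074 by DESeq2), and 0.89 without WT replicate 2. *Gfra1*, the co-receptor of GDNF, was far more abundant, at 424, 363 and 453 CPM in WT and 452, 474 and 484 CPM in *Plxnb1*-/- libraries 1 to 3, and its genotypes overlapped (log2 fold change 0.19, SE 0.08, adjusted p = 0.339 by edgeR, and 0.10 without WT replicate 2). *Ret* measured 12.0 to 14.9 CPM in WT and 13.6 to 19.7 CPM in *Plxnb1*-/- SCs, with a log2 fold change of 0.21 (SE 0.14) that was 0.05 without *Plxnb1*-/- replicate 3, its highest library. *Ncam1*, which encodes an alternative GDNF receptor, had a log2 fold change of 0.04 (SE 0.05). The largest negative value was that of the neurturin gene *Nrtn*, -0.24 (SE 0.61), at 0.34 CPM or less in every library.

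LIF is a gp130 cytokine that acts on motor neurons and on SCs themselves. *Lif* gave 271, 245 and 283 CPM in WT cells, against 283, 258 and 232 CPM in the mutant cells. The genotypes overlapped, and the lowest library was *Plxnb1*-/- replicate 3, which had the highest level of *Ngfr*. The log2 fold change was -0.05 (SE 0.08, adjusted p = 0.825 by edgeR), 0.02 without that library, and -0.10 without WT replicate 2.

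CLCF1, the product of *Clcf1*, is a secreted cytokine that binds the CNTF receptor. *Clcf1* was present at 51.6, 41.5 and 49.7 CPM in WT SCs and at 56.9, 59.1 and 61.2 CPM in *Plxnb1*-/- SCs. Each *Plxnb1*-/- library was above each WT library, and the log2 fold change of 0.31 (SE 0.08) was the largest of the 8 genes. Its adjusted p was 0.273 by edgeR, 0.0221 by DESeq2, and 0.0348 by edgeR without the filter on low counts, which called 0.949% of all genes. Without WT replicate 2 the log2 fold change was 0.23. A protein-coding gene on the same strand, AC109138.7, shares 8.17% of its exonic bases.

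CNTF is the cytokine stored by mature myelinating SCs, and its message is known to fall after injury. *Cntf* stood at 6.25, 5.47 and 6.82 CPM in the WT libraries and at 6.61, 7.53 and 6.72 CPM in the *Plxnb1*-/- libraries. The genotypes overlapped, with a log2 fold change of 0.17 (SE 0.10, adjusted p = 0.501 by edgeR), and of 0.09 without WT replicate 2. This value is uncertain, because 847 of its 1073 exonic bases (78.9%), and all 594 of its coding bases, are also exon of *Zfp91* on the same strand, and only 226 bases belong to *Cntf* alone.

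Of the 19 genes of the gp130 list, 18 were tested, 0 were called by edgeR and 1, *Clcf1*, by DESeq2, and 3 were higher and 0 lower at an unadjusted p below 0.05. With *Cntf*, *Lif* and *Clcf1* left out, 2 of 15 were higher and 0 lower, with a median log2 fold change of -0.03. Of all tested genes, 6.95% were higher and 6.78% lower at that level, and DESeq2 called 1.5%. *Clcf1* had the largest positive log2 fold change of the list and *Cntfr* the largest negative one. *Il6st*, which encodes gp130, had a log2 fold change of 0.15 (SE 0.05, adjusted p = 0.302 by edgeR), and its genotypes did not overlap. *Cntfr*, the receptor subunit shared by CNTF and CLCF1, had a log2 fold change of -0.09 (SE 0.09) and *Lifr* of -0.06 (SE 0.10), and both overlapped. Downstream of gp130, *Stat3* was at 0.06 (SE 0.04), and its target *Socs3* at 0.03 (SE 0.07, 132 to 153 CPM in WT and 135 to 153 CPM in *Plxnb1*-/- SCs).

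Sonic hedgehog, the product of *Shh*, is a signal that SCs begin to make after injury. *Shh* was present at 82.6, 68.5 and 96.6 CPM in WT SCs and at 93.0, 97.6 and 102 CPM in *Plxnb1*-/- SCs. WT replicate 3 lay among the *Plxnb1*-/- libraries, so the genotypes overlapped. The log2 fold change was 0.24 (SE 0.10, adjusted p = 0.363 by edgeR and 0.224 by DESeq2), and 0.12 without WT replicate 2. Genes on the opposite strand, 9530036O11Rik and Gm26894, cover 15.7% and 12.7% of its exonic bases.

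All 16 genes of the hedgehog list were tested, 0 were called by edgeR and 1 by DESeq2, and 3 were higher and 2 lower at an unadjusted p below 0.05. With *Shh* left out, 2 of 15 were higher and 2 lower, with a median log2 fold change of -0.03. Of all tested genes, 6.95% were higher and 6.78% lower at that level, and DESeq2 called 1.5%. *Dhh*, the hedgehog that SCs make in development and in intact nerve, stood at 249, 201 and 252 CPM in the WT libraries and at 258, 291 and 299 CPM in the *Plxnb1*-/- libraries. Its genotypes did not overlap, and its log2 fold change of 0.27 (SE 0.09, adjusted p = 0.293 by edgeR) was 0.18 without WT replicate 2. *Rhebl1* on the same strand shares 12.4% of its exonic bases, and the antisense gene Gm49442 covers 25.2%. *Ptch1*, at once receptor and target of hedgehog signaling, gave 93.5, 73.9 and 89.5 CPM in WT cells, against 95.3, 103 and 106 CPM in the mutant cells, again without overlap (log2 fold change 0.24, SE 0.08, adjusted p = 0.295 by edgeR, and 0.15 without WT replicate 2). The other target examined, *Gli1*, had a log2 fold change of -0.13 (SE 0.11) at 4.74 to 4.89 CPM in WT and 4.04 to 4.99 CPM in *Plxnb1*-/- SCs, and *Smo* was at 0.01 (SE 0.04). The call of DESeq2 was *Cdon*, which encodes a hedgehog co-receptor and had the largest negative value of the list. It was present at 56.9, 74.8 and 56.8 CPM in WT SCs and at 48.0, 49.0 and 45.6 CPM in *Plxnb1*-/- SCs, a log2 fold change of -0.40 (SE 0.10, adjusted p = 0.273 by edgeR and 0.0124 by DESeq2). WT replicate 2 was its highest library, and without it the value was -0.26. *Ihh* had the largest positive value, 0.90 (SE 0.82), from 0.13 CPM or less in every library.

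**Figure D2:**
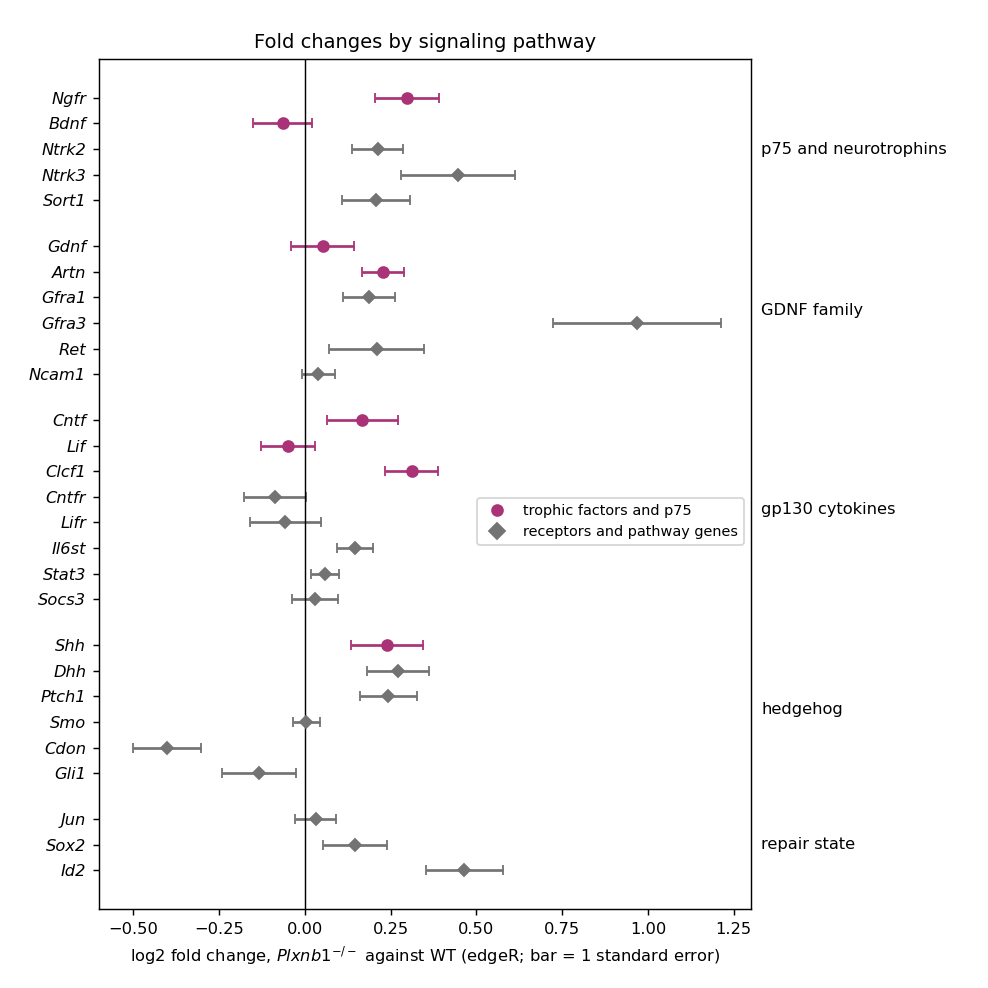
Log2 fold change of *Plxnb1*-/- against WT SCs in edgeR's fit (horizontal axis; bars are 1 standard error), for the tested trophic genes (circles) and receptors and pathway genes (diamonds), by family. *Ngfr*, *Artn*, *Clcf1* and *Shh* lie between 0.23 and 0.31, *Bdnf*, *Gdnf* and *Lif* within 0.07 of 0, and *Gfra3* farthest out at 0.97; none passed edgeR's adjusted threshold.

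*Olig1* encodes a transcription factor of the oligodendrocyte lineage that is also turned on in repair SCs. It had 0 counts in each WT library and 4, 0 and 2 counts in *Plxnb1*-/- libraries 1 to 3, that is 0 of 194103271 counts in WT and 6 of 219128884 in *Plxnb1*-/- SCs. Only *Plxnb1*-/- replicate 1 was above the 3-count level, and expression in the other 5 libraries was not detectable at this depth. *Olig2*, its neighbor in the oligodendrocyte lineage, had 0 counts in all 6 libraries. The antisense gene Gm15966 covers 7.26% of the exonic bases of *Olig1*.

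Levels of different genes were compared as RPKM, which divides the CPM of a gene by its exonic length in kilobases, on the union of the exons of each gene. The aligner could not place reads across introns, which can lower genes with many short exons more than others. How far this changed the order of the genes was not tested. Over the 6 libraries, *Ngfr* (62.7 ± 9.08, SD) and *Lif* (60.2 ± 4.83) led and overlapped, followed without overlap by *Shh* (31.6 ± 4.35). *Gdnf* (14.8 ± 1.37) and *Clcf1* (14.0 ± 1.91) overlapped each other, and *Artn* (9.24 ± 0.894) and *Bdnf* (2.14 ± 0.165) followed, each below the lowest library of the gene above. *Olig1* was last. *Cntf* lay at 6.12 ± 0.636 over all its exonic bases, between *Artn* and *Bdnf*, but at 29.1 on average if its counts came only from the bases it does not share with *Zfp91*, so its place in this order is not known. The spread between genes, from *Bdnf* to *Ngfr*, was thus far wider than any difference between the genotypes. *Lif* stood above *Ngfr* in WT SCs (61.3 ± 4.51 against 56.2 ± 7.26 RPKM, SD, n = 3) and below it in *Plxnb1*-/- SCs (59.2 ± 5.90 against 69.2 ± 5.27). The ratio of *Lif* to *Ngfr* within a library was between 1.01 and 1.17 in the WT libraries and was 1.03, 0.822 and 0.736 in the *Plxnb1*-/- libraries, of which library 1 lay within the WT range. Among the receptors, *Gfra1* (75.4 RPKM in WT and 85.8 in *Plxnb1*-/- SCs on average) and *Ncam1* (107 and 110) were more abundant than their ligands *Gdnf* and *Artn*, while *Ret* (2.07 and 2.39) and *Gfra3* (1.01 and 1.98) were less abundant. *Cntfr* (2.88 and 2.71 RPKM), whose product binds CNTF and CLCF1, was below *Clcf1* in every library.

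**Figure D3:**
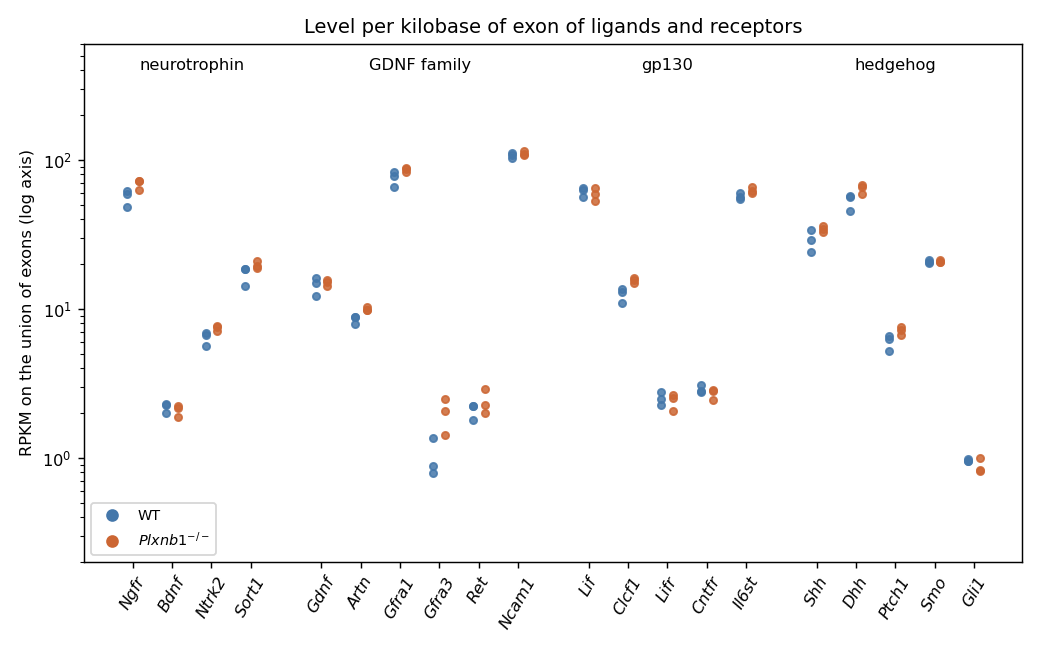
RPKM on the union of exons (vertical log axis) of ligands and receptors of the 4 families, 1 point per library, WT and *Plxnb1*-/- side by side. *Ncam1* is the most abundant of these at 107 RPKM in WT on average, the factors run from 2.14 (*Bdnf*) to 60.2 (*Lif*) over the 6 libraries, and *Ret*, *Gfra3* and *Gli1* sit near the bottom.

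Genes of the repair state were taken as a list of 26 that includes the 9, of which 25 were tested. edgeR called 0 of them and DESeq2 2, *Id2* and *Clcf1*, where DESeq2 called 1.5% of all tested genes. At an unadjusted p below 0.05, 12 were higher and 0 lower, where 6.95% of all tested genes were higher. With the 9 genes left out, 8 of 17 were higher and 0 lower at that level, with a median log2 fold change of 0.15. The 12 SC markers, of which 2 (*Gfap* and *Ncam1*) are also on this list, moved with it, with 8 higher, 0 lower and a median of 0.19, and their part in these counts was not tested. *Jun*, the regulator of the repair state, stood at 391, 362 and 405 CPM in the WT libraries and at 367, 412 and 406 CPM in the *Plxnb1*-/- libraries, with a log2 fold change of 0.03 (SE 0.06, adjusted p = 0.854 by edgeR). *Sox2*, a factor of immature SCs, was at 0.15 (SE 0.09), overlapped, and was at 0.04 without WT replicate 2. *Id2*, which encodes an inhibitor of differentiation and had the largest positive value, gave 90.9, 63.3 and 81.5 CPM in WT cells, against 102, 110 and 113 CPM in the mutant cells. Its genotypes did not overlap, and its log2 fold change was 0.46 (SE 0.11, adjusted p = 0.266 by edgeR and 0.0057 by DESeq2), and 0.34 without WT replicate 2.

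In a list of 18 other factors that SCs can secrete, edgeR called 0 and DESeq2 called 3, all lower, and 3 were higher and 3 lower at an unadjusted p below 0.05. Of all tested genes, 6.95% were higher and 6.78% lower at that level, and DESeq2 called 1.5%. *Igf1*, which supports neurons and SCs and had the largest negative value, was present at 22.4, 25.6 and 19.7 CPM in WT SCs and at 15.5, 15.2 and 17.6 CPM in *Plxnb1*-/- SCs. Each *Plxnb1*-/- library was below each WT library, and the log2 fold change was -0.49 (SE 0.10, adjusted p = 0.255 by edgeR and 0.0016 by DESeq2), and -0.39 without WT replicate 2. The other calls of DESeq2, named after their values were seen, were *Nrg1* (-0.41, SE 0.07) and *Vegfa* (-0.45, SE 0.13). The neuropeptide gene *Ucn2* had the largest positive value, 0.39 (SE 0.15, adjusted p = 0.329 by edgeR), overlapped, and was at 0.26 without *Plxnb1*-/- replicate 3. Over the 6 lists together, without the 9 genes, edgeR called 0 of 82 tested genes and DESeq2 called 2 higher and 4 lower, and 19 were higher and 5 lower at an unadjusted p below 0.05.

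Genes were then ranked by how much their level across libraries was like that of *Ngfr*. Of 14991 genes with a mean of at least 1 CPM, the 5 whose log2 CPM had the highest Pearson's r with *Ngfr* over the 6 libraries were *Klhl29*, *Tspan17*, *Itprid2*, *Nacc2* and *Fbxo7*, with r between 0.997 and 0.999. Of the genes treated above, *Dhh* (r = 0.993, place 23) and *Ptch1* (r = 0.992, place 26) were near the top, *Clcf1* (0.977) and *Artn* (0.938) further down, and *Lif* (-0.10) and *Bdnf* (-0.41) were not alike. *Erbb3*, the neuregulin receptor of SCs, was at place 39. These r describe 6 points that share the low WT replicate 2.

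Markers of the cell types in the cultures also differed between the libraries. The 12 SC markers summed to 4233, 3669 and 4263 CPM in WT and 4269, 4730 and 4790 CPM in *Plxnb1*-/- libraries 1 to 3, and 8 of the 12 were higher and 0 lower at an unadjusted p below 0.05. The 11 fibroblast and mural markers summed to 4785, 5921 and 5201 CPM in WT and 4494, 4676 and 4348 CPM in *Plxnb1*-/- SCs, and 0 were higher and 5 lower. Of all tested genes, 6.95% were higher and 6.78% lower at that level. A sum depends on which genes are on its list, so these sums do not give the share of a cell type in a culture. *Thy1*, the target of the depletion, stood at 429, 652 and 490 CPM in WT and 410, 409 and 384 CPM in *Plxnb1*-/- libraries. Neither list had a gene that edgeR called, and DESeq2 called 0 of the first and 2 of the second, against 1.5% of all tested genes. The 8 macrophage markers summed to 31.2 to 35.3 CPM in WT and 36.3 to 41.9 CPM in *Plxnb1*-/- SCs, the 5 satellite glia markers to 1147 to 1298 and 1361 to 1415 CPM, and the 10 sensory neuron markers to 152 to 166 and 168 to 192 CPM. The sums of these 5 lists did not overlap between the genotypes. With the most abundant gene of each list left out, the sums of SC and satellite glia markers still did not overlap, while those of fibroblast and mural, macrophage and sensory neuron markers did. By mean log2 CPM of a list, the SC markers overlapped, at 7.7561 in WT replicate 1 and 7.7554 in *Plxnb1*-/- replicate 1. The sensory neuron markers overlapped too, at 1.19 in WT replicate 3 and 1.15 in *Plxnb1*-/- replicate 2. *Tubb3*, a tubulin gene, made up most of the sensory neuron sum, and without it the sums were 19.4, 24.5 and 23.7 CPM in WT and 24.5, 23.9 and 38.8 CPM in *Plxnb1*-/- SCs. Of the oligodendrocyte markers, *Olig2* was at 0 counts, and *Mog*, *Nkx2-2* and *Opalin* were too low to be tested. The part of the cell types in the differences of *Ngfr*, *Artn*, *Clcf1* and *Shh* was not tested.

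On the log2 scale, the mean of the SC markers was 0.17 higher in *Plxnb1*-/- than in WT SCs (SD over libraries 0.11 in WT and 0.09 in *Plxnb1*-/- SCs). Set against that mean in each library, a scale chosen after the data had been seen that lowers the difference of every gene by this amount, *Ngfr* was 0.13 and *Clcf1* 0.14 higher in *Plxnb1*-/- SCs, still without overlap between the genotypes. *Artn* was 0.06 and *Shh* 0.08 higher, both with overlap. *Cntf* differed by -0.0017, *Gdnf* by -0.11, *Lif* by -0.23 and *Bdnf* by -0.24, all with overlap. On this scale, 1.9% of all tested genes were higher without overlap and 24.8% lower. Of the pathway genes set on this scale, *Gfra3* was 0.79, *Id2* 0.31 and *Dhh* 0.10 higher, and *Cdon* (-0.57) and *Igf1* (-0.66) were lower, all without overlap. *Ptch1* (0.07), *Ntrk2* (0.04), *Sort1* (0.04) and *Il6st* (-0.03), which did not overlap in CPM, overlapped on this scale, as did *Gfra1* (0.02).

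**Figure D4:**
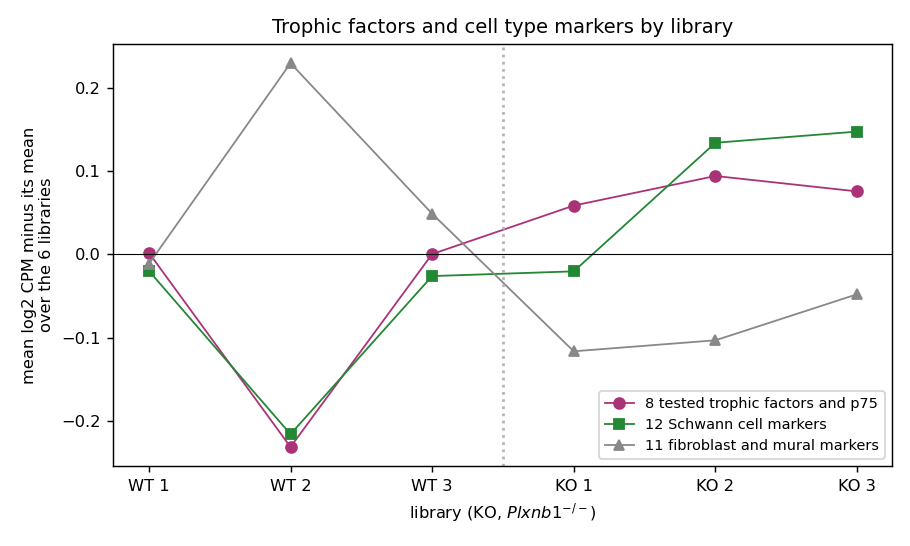
Mean log2 CPM of the 8 tested trophic genes, the 12 SC markers and the 11 fibroblast and mural markers (vertical axis, each minus its own mean over the 6 libraries) in each library (horizontal axis; lines only join the points of a list). WT replicate 2 is the lowest for the trophic genes and SC markers and the highest for the fibroblast markers, and every *Plxnb1*-/- library lies above every WT library for the trophic genes.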

How the data were processed

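Primary SCs of 3 WT and 3 *Plxnb1*-/- samples were profiled by poly(A)-selected, strand-specific RNA-seq. The authors trimmed reads (Trim Galore 0.6.5), aligned them to mm10 with Bowtie2 2.4.1, which cannot place a read across an intron, dropped duplicates (SAMtools 1.10) and deposited exonic counts per gene from featureCounts, without normalization. Deposited FPKM values are per gene span, introns included, so levels per length were computed here from counts and the union of exons (GENCODE, GRCm38). The table lists 55401 genes, of which 55141 matched this annotation. A gene needed 2 or more counts in 5 or more of the 6 libraries, which 22318 met, and the genotypes were compared by the quasi-likelihood test of edgeR 4.0.16 in R 4.3.3, with TMM factors and no covariate. Each SE was the absolute log2 fold change divided by the square root of the F statistic of this test. Total counts were 59252048 to 77280964 per library, and a floor of 3 counts covers counting error only. Alternatives were DESeq2 1.42.0, other scalings, dispersion estimates and filters, limma 3.58.1 on log2(FPKM + 0.1) and log2(FPKM + 1), chromosome 9 left out, no cutoff on the fold change, a replicate term, and each library left out. The scale relative to SC markers and the counts of non-overlapping genes under other settings were added after seeing the data, as were marker sums without the most abundant gene. Scripts were tested on simulated data. The 9 genes and the lists were chosen with earlier results of these data known. Named beside the 9 were their receptors and co-receptors, readout genes and sister ligands, regulators of the repair state, the largest rise and fall of each list, and the 5 genes most like *Ngfr*. The labels do not say whether replicate numbers pair the samples, and the main test used no pairing. Promoters came from RefSeq. Some genes of the lists are counted but not reported by name here.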

Additional observations from a re-analysis of the deposited data

How the results depend on the processing

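edgeR and limma called 0 of the 8 trophic genes and 0 of the 6 lists' genes in every setting run except without the filter on low counts. In that setting edgeR called 1 and 7, and it called 0.949% of all genes. DESeq2 also called 1 and 7, and it called 1.5% of all tested genes. The number of trophic genes without overlap was 3, where 19.7% of all tested genes did not overlap in either direction. It was between 3 and 6 with each library left out, and 6 without WT replicate 3, where that share was 30.8%. Relative to SC markers, only *Ngfr* and *Clcf1* were without overlap, both higher, where 1.9% of all tested genes were higher and 24.8% lower. *Plxnb1* kept its direction but missed the threshold with robust dispersion (-2.08, adjusted p = 0.220), with edgeR's own filter (-2.08, adjusted p = 0.0715), with limma on log2(FPKM + 0.1) (-1.86) and log2(FPKM + 1) (-1.14, adjusted p = 0.413 for both), and without WT replicate 1 or any of the *Plxnb1*-/- libraries, and it ran from -2.30 to -1.74 with each library left out. The cause of these changes was not tested.

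With each library left out, log2 fold changes that crossed 0 ran from -0.050 to 0.14 for *Gdnf*, from -0.12 to 0.0090 for *Bdnf*, from -0.12 to 0.022 for *Lif*, from -0.13 to 0.046 for *Lifr*, from -0.0056 to 0.024 for *Smo*, from -0.019 to 0.090 for *Socs3*, from -0.0083 to 0.080 for *Jun* and from -0.70 to 0.44 for *Nrtn*. *Smo* was at -0.0041 with upper-quartile factors. *Ngfr*, *Artn*, *Cntf*, *Clcf1* and *Shh* stayed above 0 in all 17 refitted alternatives.

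Same-numbered libraries correlated at -0.02, 0.01 and 0.07 in their deviations from the genotype means, and differently numbered ones at -0.05 to 0.05. With 3 libraries per genotype, these values cannot show whether the samples were prepared in pairs. With replicate number as a block, 5 genes of all tested were called in place of 8, 0 of them trophic genes or genes of the lists, and *Plxnb1* was at -2.03 (adjusted p = 0.0271, edgeR).

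*Olig1*, with at most 4 counts, is at the limit of the depth, and most exonic bases of *Cntf* are also exon of *Zfp91*.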

Other observations

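Of the 10 sensory neuron markers, 9 were highest in *Plxnb1*-/- replicate 3, the library with the lowest *Lif* and the highest *Ngfr*, *Clcf1* and *Shh*. *Prph*, which encodes the neuronal filament peripherin, was present at 16.8 CPM in that library, against 8.36 to 11.2 CPM in the other 5. *Scn10a*, a sodium channel gene of pain-sensing neurons, gave 1.08, 1.54 and 1.62 CPM in WT cells, against 2.13, 1.26 and 3.53 CPM in the mutant cells. Neither passed edgeR's test (adjusted p = 0.374 and 0.394). *Spp1*, which encodes the secreted protein osteopontin, was the most abundant of the secreted factors examined, at 1922 to 2306 CPM in WT and 1928 to 2028 CPM in *Plxnb1*-/- SCs, with a log2 fold change of -0.07 (SE 0.07). These genes were chosen after their values were seen.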
